A study of Homo sapiens with 7 samples.

Results

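POU4F1, GJA1, HCLS1, DPP7 and ARHGAP36 are 5 genes whose RNA lay among the furthest from control in a heterozygous ARID1A line of the human neuroblastoma cell line NGP. They were chosen from their measured levels in that library against the control library made with the same kit, so this distance is given as a description with no test. They are 5 of the 28517 entries of each deposited table, and 4 of the 5 passed a filter on low values, HCLS1 being the exception. NGP is a cell line with amplified MYCN, the oncogene of high-risk neuroblastoma, and ARID1A is a subunit of the BAF (SWI/SNF) complexes, which use ATP to move nucleosomes.

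RNA was sequenced from ARID1A+/- NGP cells (1 library), ARID1A-/- line 1 (2 libraries), ARID1A-/- line 2 (2 libraries) and control NGP cells (2 libraries). All were cultured in medium with 0.5 µg/ml puromycin. The labels do not say how the alleles were mutated, whether a line is 1 clone, or whether its libraries come from separate cultures, so a line and its genotype cannot be told apart and p-values measure only the spread between these libraries. Each replicated group has 1 library from the SMARTer Universal Low Input kit and 1 repeat from the KAPA mRNA HyperPrep kit. KAPA was also used for the ARID1A+/- library. Where a group has a pair of values below, the SMARTer library comes before the KAPA library. Levels are RPKM, the read count scaled by gene length and library depth, so levels of genes can be compared per length.

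Total counts were 33032528 in the ARID1A+/- library and between 24445301 and 43644361 in the others. ARID1A RNA itself was at 19.9 RPKM in ARID1A+/- cells, 16.7 and 17.2 RPKM in line 1, 14.2 and 13.8 RPKM in line 2, and 22.3 and 22 RPKM in control cells. Its fall passed the test in line 2 (log2 fold change -0.70 ± 0.11 SE, edgeR adjusted p = 0.0094) and not in line 1 (-0.38 ± 0.11, adjusted p = 0.066). The line 2 call was lost without either line 2 library (adjusted p = 0.09 without SMARTer and 0.1 without KAPA), without either control library (0.085 without SMARTer and 0.06 without KAPA) and in an edgeR fit without the kit term (0.086), and DESeq2 called the fall in line 1 (adjusted p = 0.041). Of the neuroblastoma identity genes, HAND2, a transcription factor of sympathetic neurons, lay between 275.7 and 349.3 RPKM in all 7 libraries. TH, the first enzyme of catecholamine synthesis and a defining gene of these cells, was at most 0.456 RPKM in any library.

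The 5 genes have separate roles. POU4F1 (BRN3A) is a POU-homeodomain transcription factor of sensory neurons and of some central neurons. GJA1 encodes connexin 43, the most widely used subunit of gap junctions, the channels that join the cytoplasm of neighbouring cells. HCLS1 (HS1) is a cortactin-related adaptor that binds the Arp2/3 complex and actin filaments and is known from blood cells. DPP7 (DPP2) is a vesicular dipeptidyl peptidase that removes dipeptides ending in proline or alanine from peptides. ARHGAP36 binds and inhibits the catalytic subunits of protein kinase A and can thereby activate GLI transcription factors of the hedgehog pathway.

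The promoters of 4 of the genes are shown because they differ widely in base composition, which the choice of genes did not use. Each is the 250 bases before the start of the gene, 5′ to 3′ on the gene's strand, from RefSeq on GRCh38.p14, whereas the reads were aligned to hg19. Capitals mark the letters TGACTCA or, for the other strand, TGAGTCA (the AP-1 motif) and CACGTG (an E-box that reads the same on both strands). No marked motif overlaps another.
POU4F1, chr13:78603553-78603802, minus strand: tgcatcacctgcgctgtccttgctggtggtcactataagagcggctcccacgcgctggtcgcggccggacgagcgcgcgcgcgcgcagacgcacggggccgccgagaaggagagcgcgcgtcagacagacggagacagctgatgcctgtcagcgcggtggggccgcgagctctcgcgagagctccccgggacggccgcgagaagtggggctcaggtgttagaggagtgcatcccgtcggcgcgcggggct
GJA1, chr6:121435396-121435645, plus strand: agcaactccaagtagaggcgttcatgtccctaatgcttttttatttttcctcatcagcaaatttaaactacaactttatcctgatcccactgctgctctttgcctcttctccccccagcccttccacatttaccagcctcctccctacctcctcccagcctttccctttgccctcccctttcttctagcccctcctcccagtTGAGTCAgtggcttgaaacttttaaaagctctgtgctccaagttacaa
HCLS1, chr3:121660904-121661153, minus strand: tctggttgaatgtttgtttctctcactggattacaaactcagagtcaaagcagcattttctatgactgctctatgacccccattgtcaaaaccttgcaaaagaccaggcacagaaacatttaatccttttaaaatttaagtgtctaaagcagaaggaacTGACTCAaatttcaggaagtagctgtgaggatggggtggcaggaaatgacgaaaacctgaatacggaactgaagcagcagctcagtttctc
DPP7, chr9:137114734-137114983, minus strand: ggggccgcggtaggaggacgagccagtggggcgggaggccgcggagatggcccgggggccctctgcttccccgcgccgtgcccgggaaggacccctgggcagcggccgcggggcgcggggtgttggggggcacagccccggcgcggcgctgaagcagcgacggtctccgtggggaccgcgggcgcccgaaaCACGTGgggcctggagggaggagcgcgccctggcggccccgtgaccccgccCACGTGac

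The GJA1 and HCLS1 promoters were poor in CpG, with 1 and 2 CpG dinucleotides and a GC content of 48% and 41.2%. The POU4F1 and DPP7 promoters held 37 and 34 CpG dinucleotides at a GC content of 71.2% and 80%. Over the 35116 promoters of the same length the median was 11 CpG dinucleotides and a GC content of 58%. The AP-1 letters begin 48 bases before the start of GJA1 and 91 bases before that of HCLS1, and 4.2% of all promoters hold them on either strand. The E-box letters begin 59 and 8 bases before the start of DPP7, and 6.34% of all promoters hold them. A TATA box (TATAAA or, for the other strand, TTTATA), which 10.7% of all promoters hold, is in none of these windows. ARHGAP36 has 2 annotated promoters on chromosome X with 17 and 22 CpG dinucleotides, and neither holds any of the 3 motifs. These are matches of letters and no factor's binding was measured.

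In the ARID1A+/- library POU4F1, GJA1 and HCLS1 were higher and DPP7 and ARHGAP36 were lower than in the KAPA control library. On the log2(RPKM + 1) scale and among 14545 entries, HCLS1 ranked 1st, GJA1 3rd and POU4F1 4th from the top with differences of 4.43, 4.01 and 3.54, and DPP7 ranked 2nd and ARHGAP36 3rd from the bottom with -3.90 and -3.66. In this comparison 2.32% of entries were higher and 2.61% lower by at least 1, which is background to a choice already made. ADCYAP1 (4.10) and MFNG (-4.20) lay as far out and are not among the 5, and the next entries were IGFBP3 at 3.43 and NMU at -3.58.

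**Figure D1:**
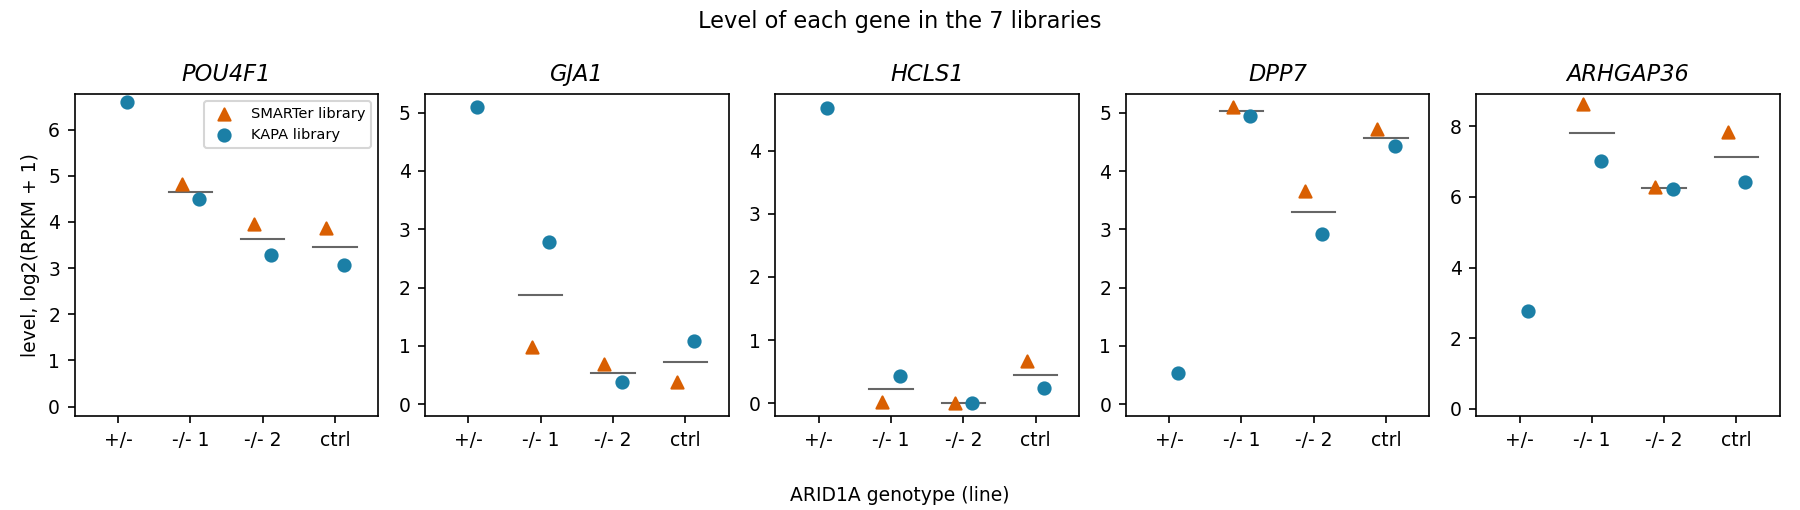
Level of the 5 genes as log2(RPKM + 1) in each library, a panel per gene, with circles for KAPA libraries, triangles for SMARTer libraries and a bar at the mean of a pair; +/- is the ARID1A+/- library, -/- 1 and -/- 2 are the ARID1A-/- lines and ctrl is control. The ARID1A+/- point is above all others for POU4F1 (96.3 RPKM), GJA1 (33.1 RPKM) and HCLS1 (24.5 RPKM) and below all others for DPP7 (0.449 RPKM) and ARHGAP36 (5.76 RPKM), and both line 2 libraries of HCLS1 are at 0.

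The difference of line 1 and line 2 compares no library of the contrast that chose the genes, although the KAPA control library enters the fit through the shared spread and the kit term. Earlier results of these data were known when the genes were chosen, so this test is not shown to be independent of the choice. For each gene 3 tests on these lines are given. Those of POU4F1, GJA1, DPP7 and ARHGAP36 are from edgeR's quasi-likelihood fit over the 6 ARID1A-/- and control libraries with a term for the kit and Benjamini-Hochberg adjustment over 14711 entries, and those of HCLS1 are from the same fit without the filter. The tests against control share the KAPA control library with the choice of genes, so they are also given without it. Of the 4 genes that passed the filter, POU4F1, DPP7 and ARHGAP36 were higher in line 1 than in line 2 and GJA1 did not pass the test; over all entries 5.71% were higher and 7.10% lower. Against control, POU4F1 rose in line 1, where 4.75% of entries rose and 8.27% fell, and DPP7 fell in line 2, where 5.47% rose and 8.52% fell. In an edgeR fit without the kit term none of these 5 calls passed, with adjusted p between 0.052 and 0.26.

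POU4F1 (chromosome 13) was highest in ARID1A+/- cells at 96.3 RPKM, a count of 12132. It was at 27.1 and 21.7 RPKM in line 1, 14.6 and 8.74 RPKM in line 2, and 13.6 and 7.38 RPKM in control cells. The ARID1A+/- library was above all others and the line 1 libraries were above all of line 2 and control, which overlapped each other. POU4F1 was thus 2.43-fold higher in line 1 than in control (log2 fold change 1.28 ± 0.16 SE, edgeR adjusted p = 0.0043), with within-kit differences of 0.94 (SMARTer) and 1.44 (KAPA) on the log2(RPKM + 1) scale. Without the KAPA control library the log2 fold change was 1.10 ± 0.19 (adjusted p = 0.041). Line 2 against control gave 0.13 ± 0.15 (adjusted p = 0.64), and -0.05 ± 0.19 without the KAPA control library, so that no direction can be given. Line 1 was 2.22-fold above line 2 (1.15 ± 0.15, adjusted p = 0.0063). The count in ARID1A+/- cells per total was 4.43-fold that of the KAPA line 1 library (95% exact interval 4.25 to 4.62), 11.0-fold that of the KAPA line 2 library (10.3 to 11.8) and 13.0-fold that of the KAPA control library (12.1 to 14.1). These intervals, and those given for the other genes, cover counting error only, and the ARID1A+/- group has no replicate. POU4F1 was lower in the KAPA than in the SMARTer library of each replicated group, at 0.802, 0.6 and 0.542 of its level in line 1, line 2 and control.

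GJA1 (chromosome 6) was at 33.1 RPKM in ARID1A+/- cells, a count of 3424. It was at 0.972 and 5.84 RPKM in line 1, 0.612 and 0.299 RPKM in line 2, and 0.3 and 1.12 RPKM in control cells. The ARID1A+/- library stood above all others, the KAPA line 1 library came next, and the SMARTer line 1 library lay within the control range. The libraries of a line disagreed between kits, since the KAPA level was 6-fold the SMARTer level in line 1, 3.74-fold in control and 0.488-fold in line 2. Line 1 against control gave a log2 fold change of 2.14 ± 0.73 (edgeR adjusted p = 0.11), line 2 against control -0.17 ± 0.79 (adjusted p = 0.91) and line 1 against line 2 2.31 ± 0.78 (adjusted p = 0.11). Without the KAPA control library line 1 against control gave 2.69 ± 1.16 (adjusted p = 0.27) and line 2 against control 0.25 ± 1.02 (adjusted p = 0.93). None of these passed the threshold, although both line 1 libraries were above both of line 2. DESeq2 called line 1 higher than control (2.14, adjusted p = 0.014) and higher than line 2 (2.28, adjusted p = 0.008). By counts the ARID1A+/- library was 5.68-fold above the KAPA line 1 library (5.2 to 6.21), 111-fold above the KAPA line 2 library (76.1 to 169) and 29.5-fold above the KAPA control library (23.8 to 36.9).

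HCLS1 (chromosome 3) was at 24.5 RPKM in ARID1A+/- cells, a count of 2134, and under 1 RPKM in every other library. Line 1 had counts of 1 and 29, line 2 had counts of 0 and 0, and control cells had counts of 67 and 12. Line 1 and control overlapped, and line 2 lay below both. Within SMARTer libraries HCLS1 was lower in line 1 than in control and within KAPA libraries it was higher, by -0.65 and 0.18 on the log2(RPKM + 1) scale. Summed over kits line 1 had 0.351 of the control share of counts (95% exact interval 0.223 to 0.541), and the fall in this sum is that between the SMARTer libraries, with counts of 1 and 67. Line 2 had 0 counts, against 79 summed control counts, of which 67 were in the SMARTer and 12 in the KAPA library. Taking 3 counts over the group as the floor, line 2 was at least 27.9-fold lower than control in this sum. That bound takes no account of the spread between the control libraries. In the edgeR fit without a filter on low values, in which 13.6% of 22631 entries were called in line 2, this difference passed the threshold (adjusted p = 0.032), and it did not pass without the SMARTer control library (adjusted p = 0.14), the SMARTer line 2 library (0.056) or the KAPA line 2 library (0.094). Without the KAPA control library it passed (adjusted p = 0.0024), and so did a fall in line 1 against control (log2 fold change -5.59 ± 1.05, adjusted p = 0.023). Line 1 against control (adjusted p = 0.48, 12.6% of entries called) and line 1 against line 2 (adjusted p = 0.12, 11.4% called) did not pass in that fit of 6 libraries. By counts HCLS1 in the ARID1A+/- library was 71-fold above the KAPA line 1 library (49.3 to 106), 132-fold above the KAPA control library (75.2 to 255) and at least 648-fold above the KAPA line 2 library, taken at a floor of 3 counts.

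DPP7 (chromosome 9) was at 0.449 RPKM in ARID1A+/- cells, a count of 25. It was at 33.4 and 29.8 RPKM in line 1, 11.7 and 6.59 RPKM in line 2, and 25.3 and 20.6 RPKM in control cells. The 4 groups did not overlap, in the order line 1, control, line 2 and ARID1A+/- from high to low. DPP7 was 2.64-fold lower in line 2 than in control (log2 fold change -1.40 ± 0.18, edgeR adjusted p = 0.0042), and -1.32 ± 0.24 without the KAPA control library (adjusted p = 0.04). Without the SMARTer control library the difference was -1.52 ± 0.26 and missed the threshold (adjusted p = 0.05). Line 1 against control did not pass (0.47 ± 0.17, adjusted p = 0.12, and 0.56 ± 0.26, adjusted p = 0.29 without the KAPA control library), so that a difference between line 1 and control, next to each other in this order, was not shown by the test. Line 1 was 3.67-fold above line 2 (1.87 ± 0.18, adjusted p = 0.002), with within-kit differences of 1.44 (SMARTer) and 2.02 (KAPA) on the log2(RPKM + 1) scale. By counts DPP7 in ARID1A+/- cells was 66.5-fold lower than in the KAPA line 1 library (44.9 to 103), 14.7-fold lower than in the KAPA line 2 library (9.76 to 23) and 45.9-fold lower than in the KAPA control library (30.9 to 71.4).

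ARHGAP36 (chromosome X) was at 5.76 RPKM in ARID1A+/- cells, a count of 599. It was at 395.7 and 127.1 RPKM in line 1, 76.9 and 73.3 RPKM in line 2, and 226.5 and 84.4 RPKM in control cells. The ARID1A+/- library was below all others, line 2 was below the other replicated groups and line 1 overlapped with control. The KAPA level was 0.321, 0.953 and 0.373 of the SMARTer level in line 1, line 2 and control, so the kits disagreed on the size of the differences that involve line 2. Line 1 was 2.96-fold above line 2 (log2 fold change 1.57 ± 0.38, edgeR adjusted p = 0.043), with within-kit differences of 2.35 (SMARTer) and 0.79 (KAPA) on the log2(RPKM + 1) scale. Without the SMARTer line 2 library this was 0.88 (adjusted p = 0.11) and without the KAPA line 2 library 2.40 (adjusted p = 0.0041), and the call was also lost without either control library (1.62 each, adjusted p = 0.066 without SMARTer and 0.057 without KAPA) and with DESeq2 (1.57, adjusted p = 0.054). Line 1 against control (0.72 ± 0.37, adjusted p = 0.24) and line 2 against control (-0.84 ± 0.37, adjusted p = 0.19) did not pass. Without the KAPA control library they gave 0.47 ± 0.47 (adjusted p = 0.64) and -1.15 ± 0.50 (adjusted p = 0.27). In ARID1A+/- cells it was 22.1-fold lower by counts than in the KAPA line 1 library (20.3 to 24), 12.7-fold lower than in the KAPA line 2 library (11.7 to 13.9) and 14.7-fold lower than in the KAPA control library (13.5 to 16).

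**Figure D2:**
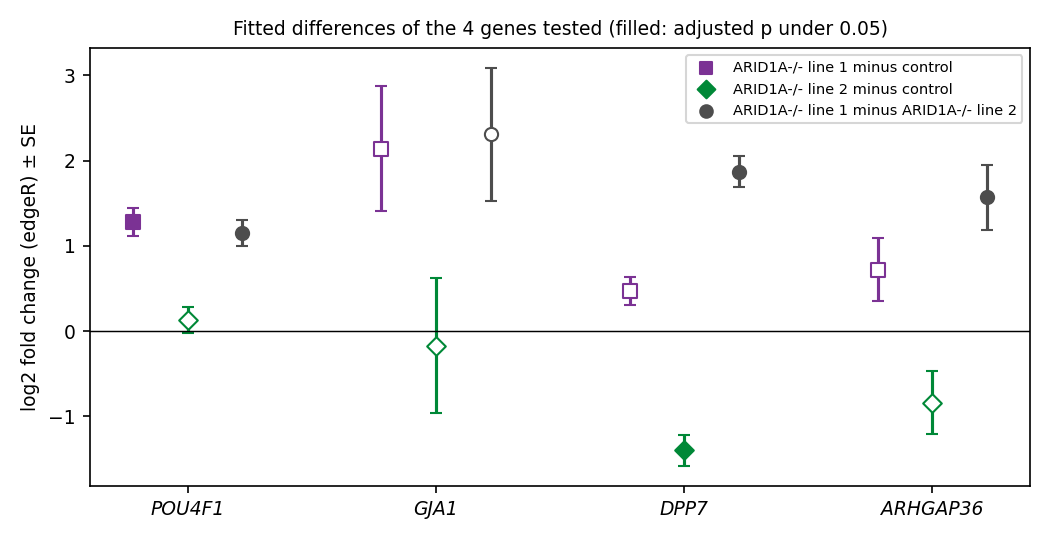
Fitted log2 fold changes of the 4 genes kept by the filter for line 1 minus control, line 2 minus control and line 1 minus line 2, with bars of 1 SE from edgeR; filled points have an adjusted p under 0.05. The 3 filled points of line 1 minus line 2 are POU4F1 (1.15), DPP7 (1.87) and ARHGAP36 (1.57).

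The direction in ARID1A+/- cells was set against the SMARTer control library, which did not choose the genes but differs in kit. By counts POU4F1 was 7.07-fold, GJA1 110-fold and HCLS1 42.1-fold higher in the ARID1A+/- library, and DPP7 was 56.5-fold and ARHGAP36 39.3-fold lower. Among all entries, 4.95% were higher and 3.68% lower by a log2 of at least 1 in ARID1A+/- cells than in the KAPA line 1 library, and 5.53% were higher and 4.41% lower than in the KAPA line 2 library. All 5 genes passed that size against both. The ARID1A+/- library was itself used in choosing them, so these are values and not tests.

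POU4F1 was the only POU factor past a log2 difference of 1 in ARID1A+/- cells against the KAPA control library, of 7 of 15 that could be compared. The counts of this and the following lists include the gene itself. Its paralogue POU4F2 (BRN3B), a factor of retinal ganglion cells, was at 1.57 RPKM in ARID1A+/- cells, 0.369 and 0.44 RPKM in line 1, 1.57 and 1.53 RPKM in line 2, and 2.87 and 2.44 RPKM in control cells. It fell in line 1, where POU4F1 rose (log2 fold change -2.71 ± 0.26, edgeR adjusted p = 0.0018). POU3F2 (BRN2), a factor of neural progenitors, also fell in line 1 (-1.40 ± 0.16, adjusted p = 0.0031). Of the 6 POU genes kept by the filter, 1 rose and 2 fell in line 1 with a median log2 fold change of -0.33, and 0 rose and 0 fell in line 2 with a median of -0.19, against medians of 0.01 and 0.02 over all entries. The shares of all entries that rose and fell were 4.75% and 8.27% in line 1, and 5.47% and 8.52% in line 2.

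The wider list of sensory neuron genes moved in both directions. Of 19 kept of 30, 5 rose and 6 fell in line 1 (median 0.08) and 2 rose and 4 fell in line 2 (median -0.13). The shares over all entries were 4.75% higher and 8.27% lower in line 1, and 5.47% higher and 8.52% lower in line 2. In ARID1A+/- cells 4 of 20, POU4F1 among them, were past a log2 of 1 above the KAPA control library and 0 below it, against 2.32% above and 2.61% below over all entries. NEUROD1, a proneural factor, was at 34.5 RPKM in ARID1A+/- cells, at most 0.0627 RPKM in the line 1 and line 2 libraries, and 53.2 and 24.1 RPKM in control cells. DRGX, a homeodomain factor of dorsal root ganglia, was at 14.4 RPKM in ARID1A+/- cells, 1.71 and 3.09 RPKM in line 1, 0.0978 and 0.241 RPKM in line 2, and 9.27 and 6.07 RPKM in control cells. DRGX fell in line 1 (-1.73 ± 0.41, edgeR adjusted p = 0.041) and in line 2 (-5.62 ± 0.56, adjusted p = 0.002). The sodium channel gene SCN9A rose in line 1 (1.63 ± 0.23) and line 2 (2.13 ± 0.23), and EYA1, a transcriptional cofactor, rose in line 1 (1.83 ± 0.15, adjusted p = 0.0011) and fell in line 2 (-1.09 ± 0.15, adjusted p = 0.0067).

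**Figure D3:**
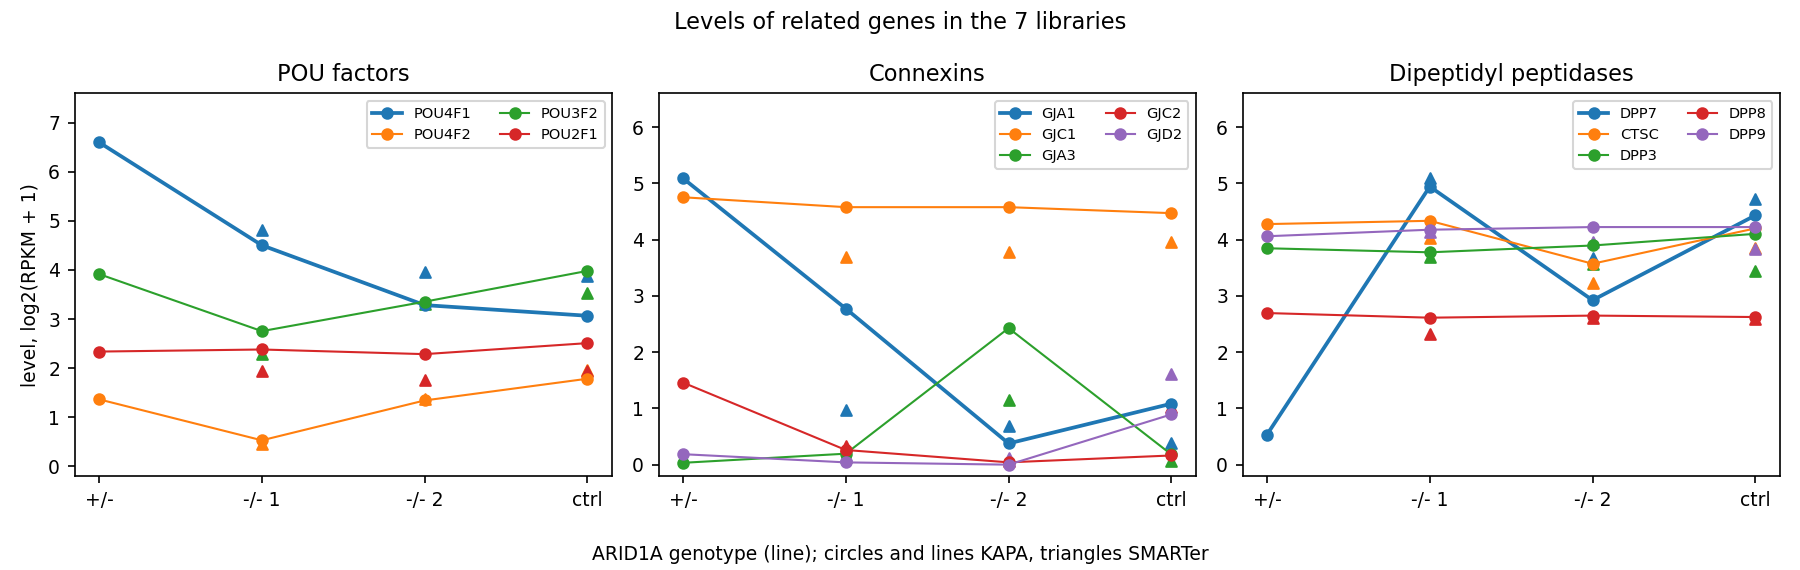
Level as log2(RPKM + 1) of POU4F1, GJA1 and DPP7 (thick lines) and of related POU factors, connexins and dipeptidyl peptidases in each library, with circles for KAPA and triangles for SMARTer libraries; lines join the KAPA values of a gene and imply no order. The ARID1A+/- library is on the left and control on the right, and GJA1 in ARID1A+/- cells (33.1 RPKM) lies above GJC1 (26 RPKM), whereas GJC1 lies above GJA1 in every other library.

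Among gap junction genes the connexin with the highest RPKM outside ARID1A+/- cells was GJC1 (connexin 45). GJC1 was at 26 RPKM in ARID1A+/- cells, 12 and 22.9 RPKM in line 1, 12.8 and 22.9 RPKM in line 2, and 14.5 and 21.2 RPKM in control cells, and passed no test. GJA3 (connexin 46), known from the lens, was at 0.0233 RPKM in ARID1A+/- cells, 0.0928 and 0.145 RPKM in line 1, 1.23 and 4.38 RPKM in line 2, and 0.044 and 0.134 RPKM in control cells. It rose in line 2 (log2 fold change 4.88 ± 0.39, edgeR adjusted p = 0.0009). GJD2 (connexin 36), the connexin of neuronal electrical synapses, fell in line 1 (-4.13 ± 0.55, adjusted p = 0.0058) and line 2 (-4.94 ± 0.61, adjusted p = 0.0038). Of 8 connexin and pannexin genes kept of 24, 0 rose and 1 fell in line 1 (median -0.22), and 1 rose and 2 fell in line 2 (median -0.12), beside 4.75% and 8.27% of all entries in line 1 and 5.47% and 8.52% in line 2. Another 7 were listed at 0 in every library, which need not mean that their RNA was absent. Of 14 genes for partners of connexin 43 kept of 19, 2 rose and 0 fell in line 1 (median 0.25) and 1 rose and 2 fell in line 2 (median -0.04), beside the same shares of all entries. PRKCA, a kinase that phosphorylates connexin 43, rose in both lines (0.89 ± 0.13, adjusted p = 0.0087 in line 1 and 1.76 ± 0.14, adjusted p = 0.0008 in line 2).

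In ARID1A+/- cells 2.32% of all entries were past a log2 of 1 above the KAPA control library and 2.61% below it. HCLS1 was the only one of 19 genes of the cortactin and Arp2/3 list past that size. Its relative CTTN (cortactin), the form used outside blood cells, was at 27.7 RPKM in ARID1A+/- cells, 20.8 and 24.5 RPKM in line 1, 20.4 and 24.6 RPKM in line 2, and 22.5 and 24.4 RPKM in control cells, and passed no test. LYN, a SRC-family kinase that phosphorylates HCLS1, was at 43.8 RPKM in ARID1A+/- cells, 35.1 and 40.9 RPKM in line 1, 22.4 and 33.8 RPKM in line 2, and 31.8 and 32.7 RPKM in control cells. Of the 18 kept genes of this list 0 rose and 0 fell in line 1 (median 0.09), and 2 rose and 1 fell in line 2 (median -0.04). As background to these counts, calls against control made up 4.75% (higher) and 8.27% (lower) of all entries for line 1. For line 2 they made up 5.47% (higher) and 8.52% (lower). The gene of the list that fell in line 2 was WIPF1, which binds WASP proteins (-1.74 ± 0.20, edgeR adjusted p = 0.0031).

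Of the dipeptidyl and prolyl peptidases, DPP7 was the only one of 14 past a log2 of 1 in ARID1A+/- cells against the KAPA control library. Over all entries 2.32% were past that size above and 2.61% below. In line 1 4.75% of all entries rose and 8.27% fell, and in line 2 5.47% rose and 8.52% fell. Of the 14 peptidases, kept of 18, 0 rose and 0 fell in line 1 (median 0.07) and 0 rose and 2 fell in line 2 (median -0.05), DPP7 among them. The second was CTSC (DPP1), a lysosomal dipeptidyl peptidase that activates granule proteases in immune cells (-0.71 ± 0.11, edgeR adjusted p = 0.0098), which was also higher in line 1 than in line 2 (0.89 ± 0.11, adjusted p = 0.0054). DPP3, DPP8 and DPP9 passed no test in either line.

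Of the hedgehog and protein kinase A genes, 2 of the 21 kept of 28 rose and 3 fell in line 1 (median 0.00), and 4 rose and 3 fell in line 2 (median 0.23). The shares of all entries were 4.75% and 8.27% in line 1 and 5.47% and 8.52% in line 2. HHIP, which binds and restrains hedgehog ligands, fell in line 1 (-3.62 ± 0.38, edgeR adjusted p = 0.0025). GAS1, a hedgehog co-receptor, fell in line 1 (-2.38 ± 0.30, adjusted p = 0.0052) and line 2 (-1.44 ± 0.29, adjusted p = 0.022). In line 2 the hedgehog receptor gene PTCH1 rose (0.60 ± 0.13, adjusted p = 0.027), as did PRKAR1A and PRKAR2B, which encode regulatory subunits of protein kinase A (0.83 ± 0.15, adjusted p = 0.016 and 1.09 ± 0.19, adjusted p = 0.014). In line 2 HHAT, the acyltransferase of hedgehog ligands, fell (-1.54 ± 0.20, adjusted p = 0.0048). In ARID1A+/- cells 1 of 22 was past a log2 of 1 above the KAPA control library, the co-receptor gene BOC at 1.29, and 1 below it, ARHGAP36. Over all entries 2.32% were past that size above and 2.61% below.

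The protein-coding genes on either side of each of the 5, taken from the RefSeq gene order with 5 on each side, were compared in the same way. Of 50 neighbours 46 were in the tables and 33 passed the filter. Over all entries 2.32% were past a log2 of 1 above the KAPA control library in ARID1A+/- cells and 2.61% below it. Of the 33 neighbours 0 were past that size in either direction. Their differences ran between -0.71 and 0.56 around POU4F1, -0.27 and 0.88 around GJA1, -0.57 and 0.04 around HCLS1, -0.60 and 0.39 around DPP7, and -0.30 and -0.02 around ARHGAP36. Of the 33, 0 rose and 5 fell in line 1 (4.75% and 8.27% of all entries), 3 rose and 2 fell in line 2 (5.47% and 8.52%), and 0 were higher and 7 lower in line 1 than in line 2 (5.71% and 7.10%). Near POU4F1, SLITRK1, a synaptic adhesion gene, was listed at 0 in both line 1 libraries, and SLAIN1, a microtubule-binding gene, fell there (-0.94 ± 0.17, edgeR adjusted p = 0.016). Near GJA1, FAM184A fell in line 1 (-1.72 ± 0.16, adjusted p = 0.0014), and SERINC1 (1.10 ± 0.12, adjusted p = 0.0025), PKIB, an inhibitor of protein kinase A (1.54 ± 0.15, adjusted p = 0.0018), and the heat shock factor gene HSF2 (0.51 ± 0.12, adjusted p = 0.04) rose in line 2. IQCB1 near HCLS1 and MST4 near ARHGAP36 fell in both lines, and no neighbour of DPP7 was called.

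**Figure D4:**
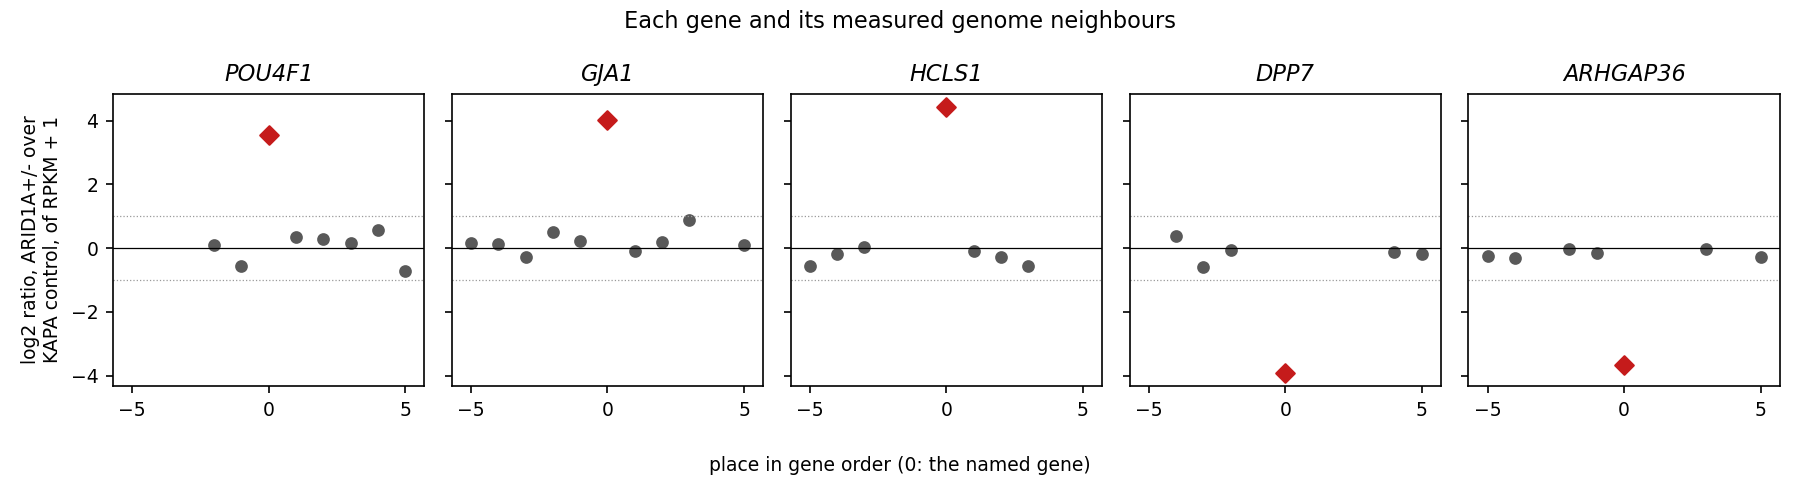
Difference of log2(RPKM + 1) between the ARID1A+/- library and the KAPA control library for each gene and its kept protein-coding neighbours, plotted by their place in gene order. The 5 genes lie between 3.54 and 4.43 above or between -3.90 and -3.66 below, and the neighbours lie between -0.71 and 0.88.

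The entries most like each gene over the 7 libraries were found by Pearson's r of log2(RPKM + 1) among up to 2227 kept entries with an SD of at least 0.5. For POU4F1 they included PPAP2B (r = 0.933) and IFITM2 (0.921). For GJA1 they were COL5A2 (0.941), NEK7 (0.931) and LAMP5 (0.931). For HCLS1 they were PQLC1 (0.984), COL5A2 (0.967) and PDGFRB (0.966). For DPP7 they were GSTM3 (0.968), RAI2 (0.966) and NFE2L3 (0.964), and for ARHGAP36 RAI2 again (0.956), GAA (0.95) and EPOR (0.949). RAI2 was listed at 0 in the ARID1A+/- library and lay between 0.851 and 1.78 RPKM in the other 6. The 7 points share cell line and pairwise a kit, and the ARID1A+/- library is an extreme point in each. Without it r over 6 libraries was 0.86 and 0.69 for these entries of POU4F1, 0.74, 0.90 and 0.68 for those of GJA1 in the order given, and 0.20, 0.26 and 0.83 for those of HCLS1. It was between 0.84 and 0.85 for those of DPP7 and between 0.76 and 0.79 for those of ARHGAP36.

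Markers of other cell types were measured beside these genes, and their part in the results was not tested. HCLS1 is known from blood cells. The summed level of 18 blood cell markers was 15.54 RPKM in ARID1A+/- cells, 16.3 and 18.05 RPKM in line 1, 23.5 and 21.48 RPKM in line 2, and 20.52 and 25.85 RPKM in control cells. CORO1A made up 11.3 RPKM of the sum in ARID1A+/- cells and CD68 3.21 RPKM, and LCP1, an actin-bundling gene of blood cells, was at 0.0447 RPKM there and 6.11 RPKM in the KAPA control library. PTPRC (CD45) had 12 counts and SPI1 10 counts over all 7 libraries, CD53 had 1, and CD3E had 0. TUBB, a tubulin gene, and PRKAR2A, a gene of a protein kinase A subunit, also had 0 counts over all 7 libraries. A count of 0 throughout therefore need not mean that an RNA was absent. Beside GJA1, which fibroblasts also express, 5 of 7 kept fibroblast genes of 9 were past a log2 of 1 above the KAPA control library in ARID1A+/- cells and 1, COL1A1, was below it, against 2.32% above and 2.61% below over all entries. Those above it were LUM (log2 difference 2.44), PDGFRB (1.71), COL3A1 (1.52), DCN (1.41) and PDGFRA (1.32). The summed level of the 9 fibroblast genes was 110.6 RPKM in ARID1A+/- cells, 224 and 245.6 RPKM in line 1, 65.32 and 61.88 RPKM in line 2, and 100 and 101.1 RPKM in control cells. COL1A1 alone made up 17.1 RPKM of this sum in ARID1A+/- cells, 155.7 and 171.2 RPKM in line 1, and 62.6 RPKM in the KAPA control library. COL1A2, a defining fibroblast collagen, had 14 counts over all 7 libraries. The 8 Schwann and neural crest markers summed to 30.48 RPKM in ARID1A+/- cells, 11.72 and 7.34 RPKM in line 1, 3.817 and 1.855 RPKM in line 2, and 52.71 and 34.58 RPKM in control cells. NGFR alone made up 30 RPKM of this sum in ARID1A+/- cells and 40.7 and 29.8 RPKM in control cells. In line 1 PMEL made up 8.8 and 4 RPKM of it and NGFR 2.05 and 2.72 RPKM. SOX10 had 15 counts over all 7 libraries. The 7 epithelial markers summed to between 2.217 and 3.131 RPKM and the 5 endothelial markers to between 0.2638 and 1.007 RPKM.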

How the data were processed

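The aligner was HISAT2 2.1.0 and the build hg19, per the submitters' processing notes. The counting program, its annotation and its use of strand were not given in the sources used here, so overlapping and antisense genes are uncertain. The labels name both the removal of ribosomal RNA and polyadenylated RNA. The authors deposited whole-number counts and RPKM for 28517 entries per library, and RPKM equals the count divided by length and library total.

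Counts were fitted with edgeR 4.0.16 (R 4.3.3), quasi-likelihood, TMM scaling, with group and kit terms over 6 libraries, for the 14711 entries whose RPKM averaged 0.5 or more over those libraries, with Benjamini-Hochberg adjustment at 0.05 and 2 residual degrees of freedom. HCLS1 failed the filter and was fitted without it. SE is the size of the fitted log2 fold change over the root of its F statistic. The fit was tested on simulated data with the same kit shift in every group. That test does not cover kit differences that vary between groups, as those of GJA1 did. The 1 ARID1A+/- library was compared by ratios, with no test. DESeq2 1.42.0 and limma 3.58.1 on log2(RPKM + pseudocount) were alternatives. Named genes were the 5, ARID1A, the likest 3 entries, called list members, named relatives and called neighbours; blood, fibroblast and other marker genes with low counts, HAND2, TH, BOC and RAI2's levels were singled out after their values were seen. Some genes the rule selects are not reported here. Members and lists were chosen with earlier results of these data known.

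In the labels the repeat library of each group is the KAPA one. Libraries of 1 kit deviated together from their group means over 14711 entries (r = 0.51 between line 1 and control, 0.63 between line 2 and control, 0.45 between the lines), so the kit pairs them and stood in the model. Chi-square per entry between the libraries of a group was 163.8, 126.1 and 129.7 in line 1, line 2 and control, so none repeats another.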

Additional observations from a re-analysis of the deposited data

Results flagged for a closer look

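The effects of the 2 ARID1A-/- lines against control differed for 3 of the 5 genes by the edgeR test of the difference itself (Benjamini-Hochberg adjusted). HCLS1 was tested in the fit without the filter. Over all entries kept by the filter 12.8% were called between the lines. Without the kit term none of the 3 genes was called, and DESeq2 did not call ARHGAP36. For POU4F1 the difference of line 1 minus line 2 was 1.15 on the log2 scale (adjusted p = 0.0063). For DPP7 it was 1.87 (adjusted p = 0.002), with line 2 below control and line 1 not distinguishable from control by the test. For ARHGAP36 it was 1.57 (adjusted p = 0.043), with neither line past the threshold against control and a within-kit difference of 2.35 in the SMARTer libraries and 0.79 in the KAPA libraries. For these 3 genes the difference of line 1 minus line 2 was positive within both kits. GJA1 was higher in both line 1 libraries than in both line 2 libraries and did not pass (2.31, adjusted p = 0.11).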

How the results depend on the processing

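Of 278 alternative values that left out no library, 240 kept their direction and side of the threshold or, for counts, stayed within 1.5 times and, for ARID1A+/- cells, within the gene's own 95% exact counting interval, which is wide for HCLS1, and none turned round. Without the replicate block for the kit, calls fell to 98 higher and 377 lower in line 1, 139 higher and 380 lower in line 2, and 200 higher and 204 lower in line 1 minus line 2, and POU4F1 (line 1 1.21, adjusted p = 0.23; line 1 minus line 2 1.11, 0.26), DPP7 (line 2 -1.36, 0.11; line 1 minus line 2 1.82, 0.052) ARHGAP36 (line 1 minus line 2 1.90, 0.24) and ARID1A (line 2 -0.70, 0.086) lost their calls. Without the filter 1054 entries rose in line 1 and 1221 in line 2, and GJA1 passed in line 1 (2.16, 0.045) and between the lines (2.31, 0.049). DESeq2 called GJA1 in both (2.14 and 2.28) and HCLS1 between the lines (5.97, 0.028), and lost ARHGAP36 (1.57). limma did not call HCLS1 in line 2 (-0.45, -0.79 and -2.15 with pseudocounts of 1, 0.5 and 0.1). In ARID1A+/- cells against the KAPA control the log2 difference moved for POU4F1 to 3.69 (pseudocount 0.1), 3.71 (TMM-scaled counts) and 3.14 (mean of both controls), for GJA1 to 4.76, 4.57 and 4.36, and 4.37 with a pseudocount of 0.5, for HCLS1 to 6.43 (0.1) and 5.46 (TMM), for DPP7 to -5.24 (0.1), -4.48 (0.5) and -4.28 (TMM), and for ARHGAP36 to -3.85 (0.1) and -4.37 (mean). Leaving out 1 library gave 101 to 1251 higher and 335 to 1777 lower entries in line 1, 108 to 1702 and 300 to 2036 in line 2, and 357 to 1106 and 412 to 1301 between the lines; higher calls against control were fewest without a control library (101 and 116 higher in line 1, 108 and 202 higher in line 2, without SMARTer and without KAPA), and those between the lines without a line 2 library. In line 1 it gave 1.07 to 1.49 for POU4F1, 0.90 to 2.90 for GJA1, -5.74 to 0.85 for HCLS1 (0.85 without the SMARTer line 1 and 0.84 without the SMARTer control library), 0.31 to 0.63 for DPP7 and 0.18 to 1.14 for ARHGAP36. In line 2 it gave -0.05 (without the KAPA control) to 0.30 for POU4F1, -2.10 to 1.15 for GJA1 (1.15 without the KAPA line 2 and 0.25 without the KAPA control library), -12.41 to -5.86 for HCLS1, -1.70 to -1.16 for DPP7 and -1.69 to -0.17 for ARHGAP36. Between the lines it gave 0.94 to 1.36, 0.92 to 4.17, 2.55 to 9.08, 1.63 to 2.17 and 0.88 to 2.40 for POU4F1, GJA1, HCLS1, DPP7 and ARHGAP36, and POU4F1 and DPP7 passed each time. The causes were not tested. The lone ARID1A+/- library allows no error of its own, and HCLS1 in the other 6 libraries rests on at most 67 counts.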
